A study of Mus musculus with 20 samples.

Results

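The genes described here are 10 transcriptional targets of p53 that act in cell cycle arrest or feed back on p53 itself: Cdkn1a, Btg2, Gadd45a, Plk2, Plk3, Mdm2, Ccng1, Ppm1d, Sesn1 and Sesn2. They were chosen by name, as every non-control probe whose gene name on the array is one of these, which gave 11 probes for 10 of the 31093 names on the array. Peripheral blood RNA from young adult male mice on the C57BL/6 background was measured on 20 Agilent mouse arrays with 1 dye, to ask how an inflammatory background bears on the blood response to radiation. The mice were labelled WT or Il10-/- (littermates from a germline mutant of the anti-inflammatory cytokine interleukin-10, B6.129P2-Il10tm1Cgn/J, used as a model of inflammatory bowel disease). Each genotype received sham exposure (0 Gy) or 7 Gy of X-rays to the whole body. Blood was drawn from the heart 24 h later, and each of the 4 groups has 5 arrays. Values below are the log2 of the background-corrected signal minus the median of its array, and a difference is the mean of 1 group minus the mean of the other on that log2 scale. Nothing in the labels gives the animals behind the arrays beyond a replicate number, so p-values measure the spread between these arrays.

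p53 is a transcription factor that is stabilised when DNA is broken and then switches on genes that hold the cell cycle, repair DNA or start cell death. Arrest is carried largely by p21, the product of Cdkn1a, which inhibits cyclin-dependent kinases, with help from Btg2, Gadd45a and the stress-responsive polo-like kinases Plk2 and Plk3. Other targets close loops on p53: Mdm2 marks it for degradation, cyclin G1 (Ccng1) brings a phosphatase to Mdm2, and the phosphatase Wip1 (Ppm1d) removes the activating phosphates that damage kinases add. Blood lymphocytes are among the most radiosensitive cells of the body, and Cdkn1a, Ccng1 and Mdm2 are common readouts of radiation exposure in blood.

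Signal over background differed between arrays. Between 34.6% and 57.8% of spots were well above background on 19 arrays, and 29.9% on replicate 5 of the unirradiated WT group, which stood apart in several of the genes below. A slide carries 1 array from each group, all with the same replicate number, which makes 5 slides. Replicates 1 and 2 were the most alike pair in each group, with a robust SD of 0.21 to 0.31 between their log2 values against 0.35 to 1.25 in the other pairs. In irradiated WT mice their mean liver signals were 10.20 and 10.25, against 7.31, 1.85 and 4.45 on replicates 3 to 5. The labels do not say whether replicates 1 and 2 come from separate animals, and every test below counts them as separate. If they do not, each group holds fewer than 5 independent arrays. The single Il10 probe (mm9, chr1:132920943-132921002) read 1.94 to 3.29 in mice labelled Il10-/-, and -2.64 to -1.06 in mice labelled WT, where no array was well above background. Its place relative to the disrupted part of the gene is not given in the sources used here, so this signal is no check of the genotype, and the genotypes are those of the labels throughout. The mean signals of B-cell, T-cell, neutrophil, erythroid and platelet markers were above the array median on every array, and transcripts of liver and heart muscle were also present on some arrays, with values given beside the results they touch.

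Cdkn1a, Plk2 and Ccng1 rose after irradiation in mice of both labels, and these were the members called at p below 0.001 with a false discovery rate under 10% in limma, 3 of 10 in each genotype. No member was called lower. Over all 15743 genes fitted, 4.59% were called higher and 2.25% lower in WT mice, and 3.33% were called higher and 5.84% lower in mice labelled Il10-/-. The 5 irradiated arrays lay wholly above the 5 unirradiated arrays in 4 of the 10 members in WT mice and in 4 in mice labelled Il10-/-, and wholly below them in none and in 1. Among all genes fitted, 11.9% lay wholly above and 4.21% wholly below in WT mice, and 6.14% and 10.9% in mice labelled Il10-/-. The median difference over the 10 members was 0.83 in WT mice and 0.66 in mice labelled Il10-/-, where the medians over all genes were -0.03 and -0.10. Of the 10 members, all passed the filter on background and 8 also passed the filter that asks for a 1.5-fold departure on some arrays. Sesn1 and Sesn2 did not pass it and were compared outside the fit. In each genotype 6 of the 8 members fitted had an unadjusted limma p under 0.05. Of all 18581 features fitted, 5397 did in WT mice and 6593 in mice labelled Il10-/-. Of all called features, 65.9% were higher in irradiated WT mice and 35.8% in irradiated mice labelled Il10-/-. These shares were 50.4% and 40.4% with quantile normalization, and 58.4% and 52.0% with the authors' own scaling. With arrays scaled by their 75th percentile they were 51.1% and 37.4%.

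**Figure D1:**
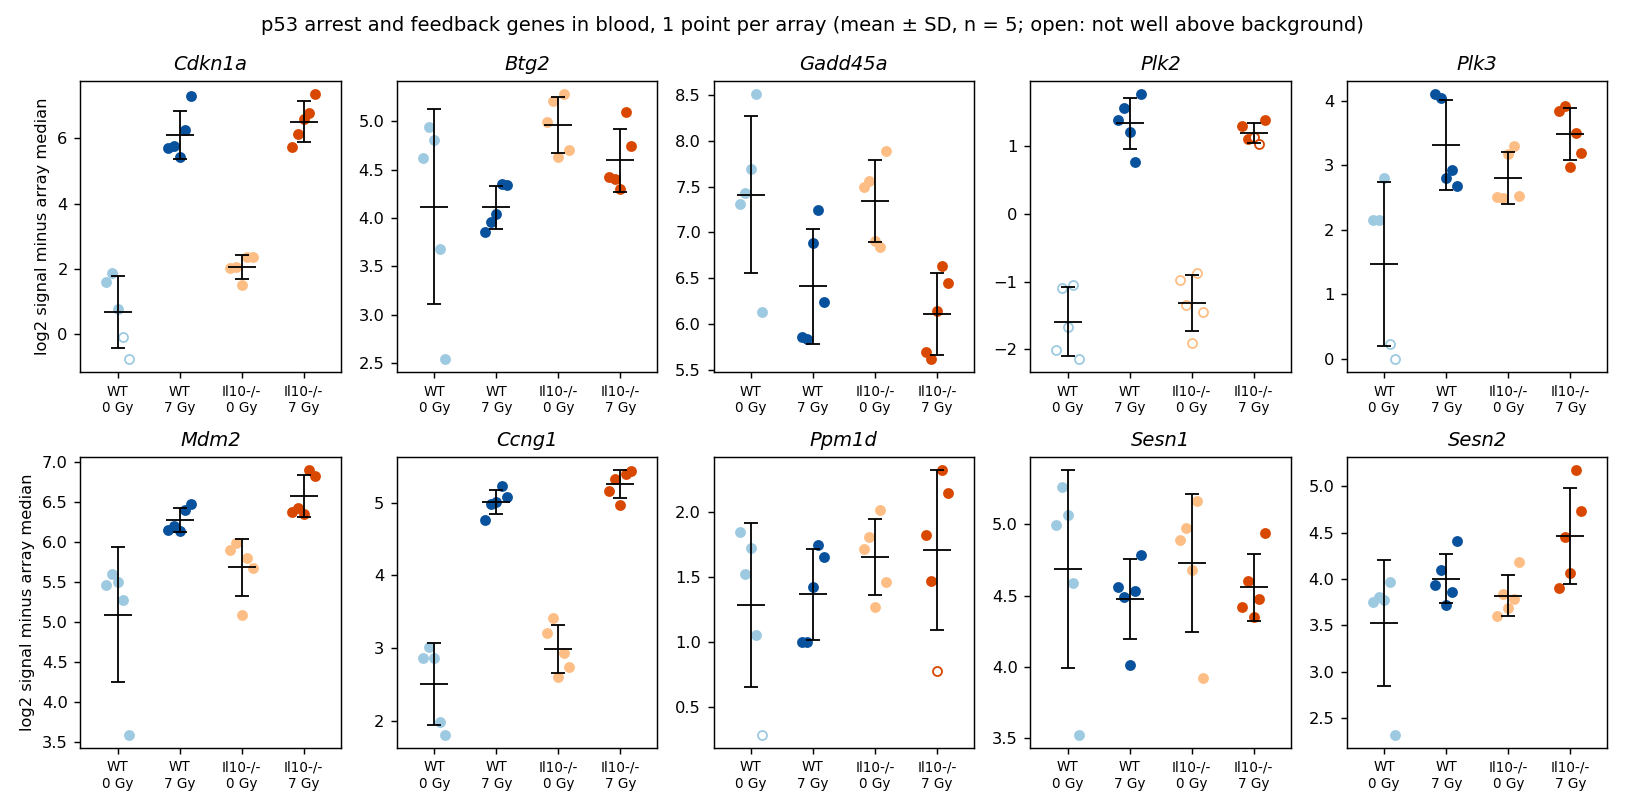
The log2 signal minus the array median (vertical axis) of each of the 10 genes in the 4 groups (horizontal axis), with 1 point per array ordered by replicate number, open where the probe was not well above background, and a bar for the mean ± SD of 5 arrays. The irradiated arrays of Cdkn1a, Plk2, Ccng1 and Mdm2 lie above all unirradiated arrays of the same genotype, those of Gadd45a lie lower in mice labelled Il10-/-, and those of Btg2, Ppm1d and Sesn1 overlap the unirradiated ones.

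Cdkn1a showed the largest change of the members. In unirradiated WT mice it read 1.60, 1.88, 0.77, -0.09 and -0.76 in replicates 1 to 5, the last 2 not well above background, and in irradiated WT mice 5.72, 5.78, 5.42, 6.25 and 7.30. Mice labelled Il10-/- read 2.03, 2.05, 1.49, 2.37 and 2.36 without irradiation and 5.73, 6.12, 6.58, 6.77 and 7.35 after it. Every irradiated array was far above every unirradiated array, and the groups did not come near each other. The difference was 5.42 ± 0.53 (SE; 42.7-fold; limma adjusted p = 2.18e-05) in WT mice and 4.45 ± 0.31 (21.9-fold; adjusted p = 6.59e-06) in mice labelled Il10-/-. Of the genes fitted, 79 had a larger positive difference than Cdkn1a in WT mice and 8 had one in mice labelled Il10-/-. These counts include transcripts of liver in WT mice, such as Serpina1a (9.54) and Alb (9.03). In mice labelled Il10-/- they include transcripts of heart muscle, such as Myh6 (7.08) and Myl2 (6.00). Within slides the change ran from 3.90 to 8.06 in WT mice and from 3.70 to 5.09 in the mutants. These values come from a probe spotted 10 times on each array (mm9, chr17:29237377-29237436).

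A second Cdkn1a probe lies 9391 bases upstream (mm9, chr17:29227986-29228045) and is listed for the second transcript variant. It was well above background on all 10 irradiated arrays, where it read 1.88 to 3.71 in WT mice and 1.91 to 3.62 in mice labelled Il10-/-. Of the unirradiated arrays only WT replicate 1, at -0.74, was well above background, and the WT values ran from -2.26 to 2.84 with the highest on replicate 5, a weak array. In mice labelled Il10-/- none of the unirradiated arrays was well above background, at a mean of -1.09, and the rise to 2.68 was at least 10.3-fold (adjusted p = 4.29e-05). In WT mice the difference was 2.89 ± 0.71 (adjusted p = 0.0141), and the groups overlapped through replicate 5. Both probes were called higher in each genotype.

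RefSeq gives Cdkn1a 2 start sites, 2790 bases apart. The window from 250 bases before to 50 after each start was searched in the assembly GRCm38.p6 for the 10-base p53 half-site. The pattern was RRRCWWGYYY (R is A or G, W is A or T, Y is C or T), with no mismatch allowed. It is its own reverse complement, so that both strands were read. Half-sites stood in 8.36% of all 32851 promoter windows of the genome, and 2 half-sites at most 13 bases apart in 0.0731%. Of the 12 windows of the 10 members, 6 held a half-site, and 1 held such a pair, at the upstream Cdkn1a start. The 250 bases before that start (chr17:29090729-29090978, plus strand) are shown 5' to 3' with the half-sites in capitals, whose first bases are at -73 and -51 from the start, with 12 bases between them.
Cdkn1a: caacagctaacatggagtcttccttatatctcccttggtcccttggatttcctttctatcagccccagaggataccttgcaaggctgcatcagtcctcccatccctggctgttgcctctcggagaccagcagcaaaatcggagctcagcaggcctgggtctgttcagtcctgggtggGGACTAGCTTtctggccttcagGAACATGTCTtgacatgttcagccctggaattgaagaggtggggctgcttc
Stretches that depart from the pattern at a single base were not marked or counted, such as tgacatgttc directly after the second half-site. The window of the downstream Cdkn1a start held no half-site. A match is a description of letters and not a site bound in blood.

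Half-sites were also found before the starts of Ccng1 (first base at -185; chr11:40755432-40755501, minus strand), Mdm2 (-186; chr10:117710905-117710974, minus strand), Ppm1d (-132; chr11:85311092-85311161, plus strand), Gadd45a (-40; chr6:67037408-67037477, minus strand) and the downstream start of Sesn1 (-173; chr10:41887236-41887305, plus strand). They are shown with 30 bases on each side, half-site in capitals, because they let the called gene Ccng1 be read beside 4 members that were not called. 
Ccng1: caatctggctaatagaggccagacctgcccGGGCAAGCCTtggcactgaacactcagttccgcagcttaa
Mdm2: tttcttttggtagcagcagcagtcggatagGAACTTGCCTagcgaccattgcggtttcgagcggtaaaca
Ppm1d: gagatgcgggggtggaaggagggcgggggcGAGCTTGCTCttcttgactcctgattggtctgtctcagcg
Gadd45a: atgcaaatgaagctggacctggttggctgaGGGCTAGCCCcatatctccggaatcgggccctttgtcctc
Sesn1: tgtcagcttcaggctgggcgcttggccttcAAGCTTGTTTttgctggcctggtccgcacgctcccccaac
The windows of Btg2, Plk2, Plk3 and Sesn2 held no half-site, and Plk2 was among the called genes. The elements of Mdm2 that p53 is best known to bind lie in its first intron, outside this window.

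Of the polo-like kinases, Plk2, which acts in the stress response and in centriole duplication, went from below detection to measurable. It read -2.02, -1.09, -1.66, -1.06 and -2.14 in unirradiated WT mice and 1.38, 1.56, 1.20, 0.76 and 1.76 in irradiated ones. In the mutants it read -0.98, -1.34, -1.91, -0.88 and -1.46 without and 1.29, 1.10, 1.12, 1.02 and 1.38 after irradiation. No unirradiated array of either genotype was well above background, and 5 irradiated WT arrays and 3 irradiated arrays of the mutants were. The rise was therefore at least 2.67-fold in WT mice (limma adjusted p = 3.10e-04; measured means -1.59 and 1.33) and at least 3.50-fold in mice labelled Il10-/- (adjusted p = 4.52e-05; measured means -1.31 and 1.18). Such a bound sets each unirradiated array at the lowest signal that was well above background on it.

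Plk3, a kinase of the DNA damage and oxidative stress responses, was less uniform. It read 2.15, 2.15, 2.81, 0.23 and 0.00 in unirradiated WT mice, the last 2 not well above background, and 4.10, 4.04, 2.80, 2.93 and 2.68 in irradiated ones. In the mutants it read 2.51, 2.50, 3.17, 3.30 and 2.53 and then 3.85, 3.92, 2.97, 3.49 and 3.19. The groups overlapped in both genotypes. The difference was 1.84 ± 0.56 in WT mice (limma adjusted p = 0.0364) and 0.68 ± 0.27 in mice labelled Il10-/- (adjusted p = 0.0939), and neither passed the threshold. In WT mice it passed with the slide as a block (adjusted p = 0.00993) and in the fit of all 20 arrays. Within slides the change ran from -0.01 to 2.71 in WT mice and from -0.20 to 1.42 in the mutants.

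Gadd45a, a stress sensor that binds p21 and the replication clamp PCNA, was the member with the most negative differences, neither of them called. It read 7.31, 7.43, 7.69, 8.51 and 6.13 in unirradiated WT mice and 5.86, 5.84, 6.89, 7.24 and 6.24 in irradiated ones, and these groups overlapped. In mice labelled Il10-/- it read 7.50, 7.56, 6.91, 6.84 and 7.89 and then 5.69, 5.62, 6.15, 6.64 and 6.45, with every irradiated array below every unirradiated one. The difference was -0.999 ± 0.47 in WT mice (limma adjusted p = 0.168) and -1.23 ± 0.29 in mice labelled Il10-/- (adjusted p = 0.0116). The unadjusted limma p of the latter lies just above the threshold of 0.001. It passed without replicate 4 of either Il10-/- group, with quantile normalization and with the background filter alone (adjusted p = 0.0112, 0.0104, 0.00882 and 0.0112). On arrays with a low signal of liver transcripts the differences were -0.67 and -1.35, and with liver and heart signals as covariates they were 0.68 in WT mice and -1.04 in the mutants.

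Btg2, an antiproliferative protein that recruits the machinery which shortens poly(A) tails, gave no called difference. It read 4.62, 4.94, 4.81, 3.68 and 2.54 in unirradiated WT mice and 3.85 to 4.35 in irradiated ones, so that the irradiated values lay inside the unirradiated range. In the mutants it read 4.63 to 5.28 and then 4.31 to 5.10. The differences were -0.01 (95% interval -0.99 to 0.97) and -0.37 (-0.88 to 0.15).

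Among the feedback genes, Ccng1 rose on every slide. It read 2.86, 3.02, 2.87, 1.98 and 1.81 in unirradiated WT mice and 4.77, 4.98, 5.01, 5.23 and 5.07 in irradiated ones, and 3.20, 3.41, 2.60, 2.94 and 2.74 and then 5.16, 5.33, 4.96, 5.40 and 5.43 in mice labelled Il10-/-. The irradiated arrays of each genotype lay close together, with an SD of 0.17 and 0.19, and stood clear of the unirradiated ones. The difference was 2.51 ± 0.38 (5.68-fold; limma adjusted p = 7.98e-04) in WT mice and 2.28 ± 0.23 (4.85-fold; adjusted p = 5.69e-05) in mice labelled Il10-/-. Within slides it ran from 1.90 to 3.27 and from 1.92 to 2.69.

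Mdm2, the ubiquitin ligase that limits p53, read 5.46, 5.61, 5.51, 5.28 and 3.60 in unirradiated WT mice and 6.15, 6.19, 6.14, 6.39 and 6.47 in irradiated ones. In the mutants it read 5.90, 5.99, 5.08, 5.79 and 5.67 and then 6.38, 6.43, 6.35, 6.90 and 6.82. The groups did not overlap in either genotype, and the rise was 0.59 to 2.87 within slides in WT mice and 0.44 to 1.26 in the mutants. The difference was 1.18 ± 0.42 in WT mice (limma adjusted p = 0.0717) and 0.89 ± 0.24 in mice labelled Il10-/- (adjusted p = 0.0218), and the threshold was passed in neither. With the authors' own table of processed values Mdm2 was called in both genotypes, at 1.09 (adjusted p = 0.00806) and 1.03 (adjusted p = 0.00293). Without replicate 5 of the unirradiated WT group the WT difference was 0.81 (adjusted p = 0.0376) and stayed uncalled.

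Ppm1d was dim and gave no called difference. It read 1.84, 1.52, 1.72, 1.06 and 0.29 in unirradiated and 1.00 to 1.75 in irradiated WT mice, and 1.27 to 2.02 and then 0.78 to 2.32 in mice labelled Il10-/-. The groups overlapped, and the differences were 0.08 (95% interval -0.76 to 0.92) and 0.05 (-0.61 to 0.71).

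The sestrins, which restrain the growth kinase mTORC1 and guard against oxidants, changed little. Sesn1 read 3.53 to 5.26 in unirradiated and 4.01 to 4.78 in irradiated WT mice, and 3.92 to 5.16 and then 4.35 to 4.94 in mice labelled Il10-/-, with differences of -0.21 (exact permutation test, 2-sided, p = 0.524) and -0.17 (p = 0.484 in the same exact test). Sesn2 read 3.76, 3.80, 3.77, 3.97 and 2.32 in unirradiated WT mice and 3.94, 4.10, 3.72, 3.86 and 4.40 in irradiated ones, and 3.59, 3.84, 3.69, 3.79 and 4.18 and then 3.90, 4.45, 4.07, 5.18 and 4.73 in mice labelled Il10-/-. Its groups overlapped in both genotypes. The difference was 0.48 in WT mice (exact permutation p = 0.119) and 0.65 in mice labelled Il10-/- (exact permutation p = 0.0397). The smallest p that 5 against 5 arrays allow is 0.0079, and these are single tests, 8 in all over the 4 comparisons of groups, with no adjustment. Without replicate 5 the WT difference of Sesn2 was 0.18.

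**Figure D2:**
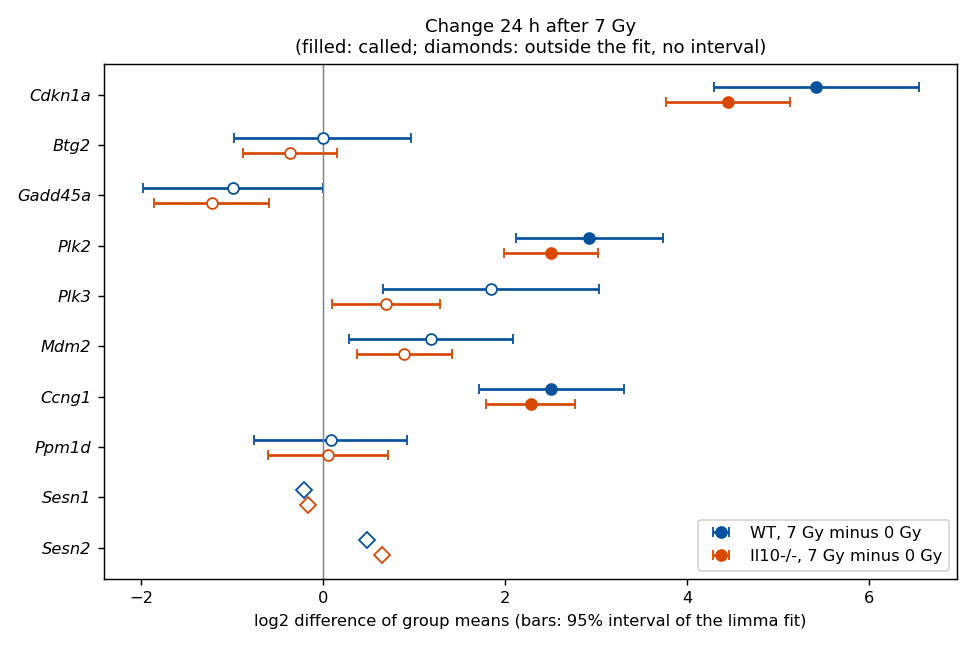
The log2 difference between irradiated and unirradiated group means (horizontal axis) of the 10 genes (vertical axis) in WT mice (blue) and mice labelled Il10-/- (orange). Bars are 95% intervals of the limma fit, filled points passed the threshold, and diamonds are the 2 genes outside the fit. Cdkn1a, Plk2 and Ccng1 lie farthest from 0 in both genotypes. The intervals exclude 0 in both genotypes for every gene fitted except Btg2 and Ppm1d. For every gene fitted the intervals of the genotypes overlap.

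Whether the genotype changed the response was tested as the interaction in 1 fit of all 20 arrays. No member was called in limma, nor was any other gene (0% of 15743). Of 18581 features 1300 had an unadjusted p under 0.05, and none of the members did. The difference of responses, Il10-/- minus WT, was negative in the 8 genes fitted, each by its brightest probe, where the median over all features was -0.20 too. Without replicate 5 of the unirradiated WT group it was positive for Mdm2 (0.08), Btg2 (0.04), Gadd45a (0.09) and Ppm1d (0.22), it was -0.60 for Cdkn1a, and the median over all features was 0.04. With all arrays it was -0.96 for the main Cdkn1a probe (95% interval -2.30 to 0.37), 0.89 for the second Cdkn1a probe (-0.93 to 2.71), -1.16 for Plk3 (-2.52 to 0.20), -0.23 for Ccng1 (-1.06 to 0.61) and -0.29 for Mdm2 (-1.27 to 0.69). Each of these intervals includes 0. For Plk2, with no unirradiated array well above background, no size is given. The size for the second Cdkn1a probe is uncertain too. Only 1 unirradiated WT array and no unirradiated mutant array was well above background for it, and WT replicate 5, at 2.84, was not. The Plk3 change was smaller in the mutants on 5 of 5 slides, with differences from -2.52 to -0.19, that of the main Cdkn1a probe on 3 of 5, and that of its second probe on 1 of 5. Slides 4 and 5 gave the largest differences of Plk3 (-2.52 and -2.02) and of the main Cdkn1a probe (-1.95 and -3.07). On both slides the unirradiated WT array was not well above background for either probe. On slides 1 to 3 the Plk3 differences were -0.61, -0.46 and -0.19. With arrays scaled by their 75th percentile the median over all features was 0.12, and the sign for Ccng1 turned under 4 of the 11 other settings that could be fitted.

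Before irradiation no member was called different between the genotypes, against 0.8% of all genes fitted. Cdkn1a was 1.38 ± 0.48 higher in mice labelled Il10-/- (limma adjusted p = 0.221), with 4 of the 5 mutant arrays above all WT arrays, and Plk3 was 1.33 ± 0.51 higher (adjusted p = 0.247). Both WT means include the low values of replicates 4 and 5, where neither probe was well above background. The sizes of these 2 differences are therefore uncertain. The median over all features was itself 0.36 higher in the mutants with this scaling, and -0.07 with the 75th percentile. Over the other settings with no single array left out the Cdkn1a difference ran from 0.33 to 1.46, and without replicate 5 of the WT group it was 1.02. Neutrophil markers were also higher in the unirradiated mutants, with 4 of 7 called and a mean signal of 8.41 to 9.92 against 6.23 to 7.92, and 3 of 16 liver markers were called higher. Their part in these differences was not tested. After irradiation no member was called either, against 0.00635% of all genes. The differences in irradiated mice, Il10-/- minus WT, were 0.41 for Cdkn1a (95% interval -0.46 to 1.29), 0.24 for Ccng1 (-0.19 to 0.68), -0.15 for Plk2 (-0.66 to 0.36) and 0.30 for Mdm2 (-0.15 to 0.76).

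Over the 20 arrays the features most like Cdkn1a, by Pearson correlation with its main probe, were 2 probes of Oas1a (r = 0.989 and 0.985), Phlda3 (0.984), Oas1f (0.982) and Zbp1 (0.982). Oas1a and Oas1f belong to the interferon-induced oligoadenylate synthetases, Zbp1 senses nucleic acids, and Phlda3 is a p53 target that restrains Akt. The points fall into 4 groups of 5 arrays that share the step between irradiated and unirradiated mice, so these values are a description. Ccng1 followed at rank 6 (r = 0.978) and Plk2 at rank 56 (r = 0.946), while Mdm2 (0.864), Sesn2 (0.682), Plk3 (0.705), Ppm1d (0.282), Btg2 (0.125), Sesn1 (-0.04) and Gadd45a (-0.63) were less alike.

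Most close relatives of the members were not called. Of 16 paralogues fitted, 1 was called higher and none lower in WT mice, and none higher and 1 lower in mice labelled Il10-/-, with medians of -0.13 and -0.17. The p21 relative Cdkn1c rose in WT mice by 2.02 ± 0.50 (limma adjusted p = 0.0139) and read 1.12 higher in the mutants without being called. Only 2 of 5 unirradiated WT arrays were well above background for Cdkn1c, so the size of its WT rise is uncertain. Cdkn1b was -1.04 and -0.81 different without being called. Ccni, a cyclin close to Ccng1, fell by 1.49 in mice labelled Il10-/- (limma adjusted p = 0.00717). In WT mice Ccni differed by -1.51 without being called (limma adjusted p = 0.0167). Ccng2 differed by -0.16 and -0.17. Mdm4, the partner of Mdm2, differed by 0.16 in WT mice and 0.15 in the mutants, and Gadd45b by -0.00 and -0.06, all uncalled. Btg3 differed by -1.41 and -1.47 and Btg1 by -0.81 and -0.65, Sesn3 by -0.97 and -0.52, and Plk1, the mitotic member of its family, by -0.90 and -1.50, again uncalled. For Plk1, 1 of 5 irradiated WT arrays and 2 of 5 irradiated mutant arrays were well above background.

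No rise was called for p53 or the kinases that act on it. Trp53 differed by -0.69 in irradiated WT mice (limma adjusted p = 0.310), and its difference in the mutants was -0.91 (adjusted p = 0.0256), both uncalled. Of 15 genes in this list none was called in WT mice, and 1 was called higher and 5 lower in mice labelled Il10-/-, with medians of -0.54 and -0.80. The damage kinase Atr fell by 1.40 in the mutants, Prkdc was called lower there with 1 of 5 irradiated arrays well above background, Atm fell there by at least 1.39-fold (adjusted p = 0.00568), with no irradiated array at the level well above background, and Cdkn2a, an inhibitor of Mdm2, rose by 1.83 there. In WT mice Atr differed by -0.94 and Cdkn2a by 1.76, both uncalled. Prkdc and Atm also read lower in irradiated WT mice, uncalled, with no irradiated WT array well above background.

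Many other p53 targets rose as well. Of 27 fitted, 12 were called higher in WT mice and 13 in mice labelled Il10-/-, none was called lower, and 11 were called higher in both, which is 11 of 12 and 11 of 13. The medians were 1.31 and 1.42. The called genes of largest rise in either genotype included Phlda3 (4.06 in WT mice and 3.68 in mice labelled Il10-/-), Dcxr (3.89 and 1.78), a carbonyl reductase, Psrc1 (2.72 and 2.68), a spindle protein, and the thiamine transporter Slc19a2, which rose at least 9.31-fold in WT mice and by 2.50 in the mutants. The list was written with earlier results of these samples known, so its direction is not independent evidence.

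Genes of the cyclin-dependent kinase and retinoblastoma pathway downstream of p21 showed a mixed picture. The 13 fitted are cyclins, cyclin-dependent kinases and retinoblastoma family genes, with E2f4, Tfdp1, Lin9 and Lin52 beside them. Of these 1 was called higher and none lower in WT mice, and 1 higher and 2 lower in mice labelled Il10-/-. Ccnd1 rose by 2.88 and 1.53, while Cdk2 and Rbl1 fell by 1.18 and 1.16 in the mutants. Of the 5 irradiated mutant arrays, 2 were well above background for Cdk2 and 3 for Rbl1, so the sizes of these falls are uncertain. Cdk2 and Rbl1 differed by -0.34 and -0.76 in WT mice, both uncalled. Of 26 cell-division genes none was called higher, 4 were called lower in WT mice and 6 in mice labelled Il10-/-, and 3 were called lower in both. Nusap1 fell by 2.92 and 2.57, Cdc25b by 2.45 and 2.43 and Ccnb2 by 2.25 and 2.20, and the medians of the list were -0.77 and -0.96. In whole blood a fall of this kind cannot be told apart from fewer cells of the type that carries the transcript.

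**Figure D3:**
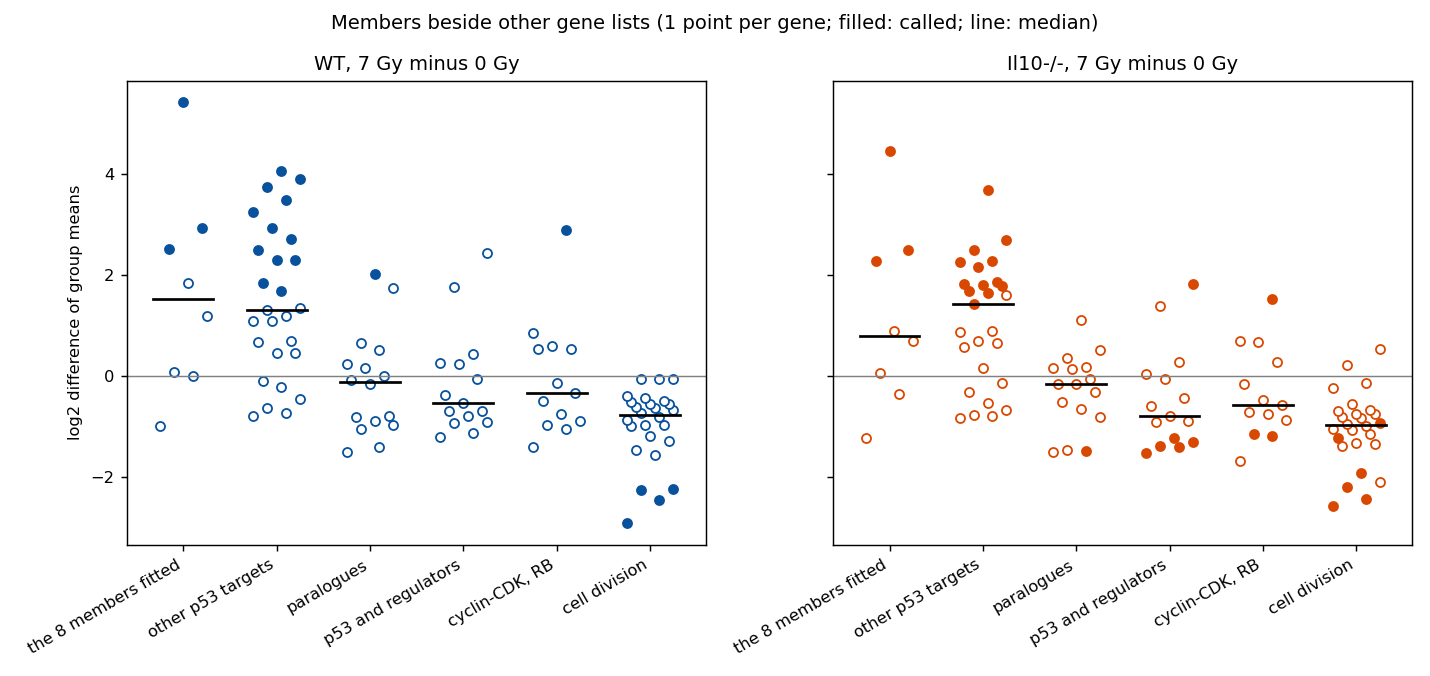
The log2 difference between irradiated and unirradiated means (vertical axis) for the 8 members fitted and 5 other gene lists (horizontal axis), WT on the left and mice labelled Il10-/- on the right, with 1 point per gene, filled where called, and a line at the median. Other p53 targets lie mostly above 0, with medians of 1.31 and 1.42, and cell-division genes mostly below it, with medians of -0.77 and -0.96.

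The makeup of the samples moved with radiation as well. Of 6 B-cell markers fitted 5 were called lower in each genotype, and their mean signal was 4.07 to 5.66 in unirradiated and 1.97 to 2.87 in irradiated WT mice, and 4.28 to 5.21 and then 1.74 to 2.43 in mice labelled Il10-/-. Erythroid markers were called lower for 3 and 5 of 8 genes, and of 8 T-cell markers 1 was called lower in each. The part of these shifts in the differences of the members was not tested.

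Liver transcripts varied widely between arrays. Of 16 liver markers fitted, 10 were called higher in irradiated WT mice and none in irradiated mice labelled Il10-/-. The mean signal over 19 markers was 0.04 to 1.26 in unirradiated WT mice, 1.85 to 10.2 in irradiated ones, and 1.43 to 8.63 and 1.23 to 8.51 in the mutants. In WT mice every irradiated array had a higher liver signal than every unirradiated array. Effects of dose and of liver transcripts therefore cannot be told apart there. The values below set the members beside this signal, and the part of liver transcripts in their differences was not tested. Replicates 3 and 4 of the unirradiated Il10-/- group had a liver signal of 7.39 and 8.63 with Cdkn1a at 1.49 and 2.37 and Ccng1 at 2.60 and 2.94. The other 3 arrays of that group, with a liver signal of 1.43 to 1.60, had Cdkn1a at 2.03 to 2.36 and Ccng1 at 2.74 to 3.41. The irradiated arrays with the lowest liver signals, WT replicate 4 (1.85) and Il10-/- replicate 3 (1.23), had Cdkn1a at 6.25 and 6.58 and Ccng1 at 5.23 and 4.96. On the 12 arrays with a liver signal under 5, Cdkn1a rose by 6.10 in WT mice (2 irradiated arrays; limma adjusted p = 1.24e-07), and the rise in the mutants was 4.82 (2 irradiated arrays; adjusted p = 0.00118), and Ccng1 and Plk2 were called in both. That choice of arrays was made after the data were seen. With the liver and heart signals as covariates no member was called in WT mice, where 5 features of 18581 were called at all and Cdkn1a differed by 4.50 (adjusted p = 0.801), and the same 3 members were called in mice labelled Il10-/-, where Cdkn1a rose by 5.10. With the normexp background correction, whose offset of 50 exceeds the median signal of every array, no feature was called in mice labelled Il10-/- and Cdkn1a differed by 2.47. Heart muscle markers, 16 genes, had a mean signal of -0.78 to 1.23 in unirradiated and -0.41 to 5.67 in irradiated WT mice, and -0.91 to 1.99 and 0.70 to 5.51 in the mutants, with none of 9 called in WT mice and 5 called higher in the mutants.

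**Figure D4:**
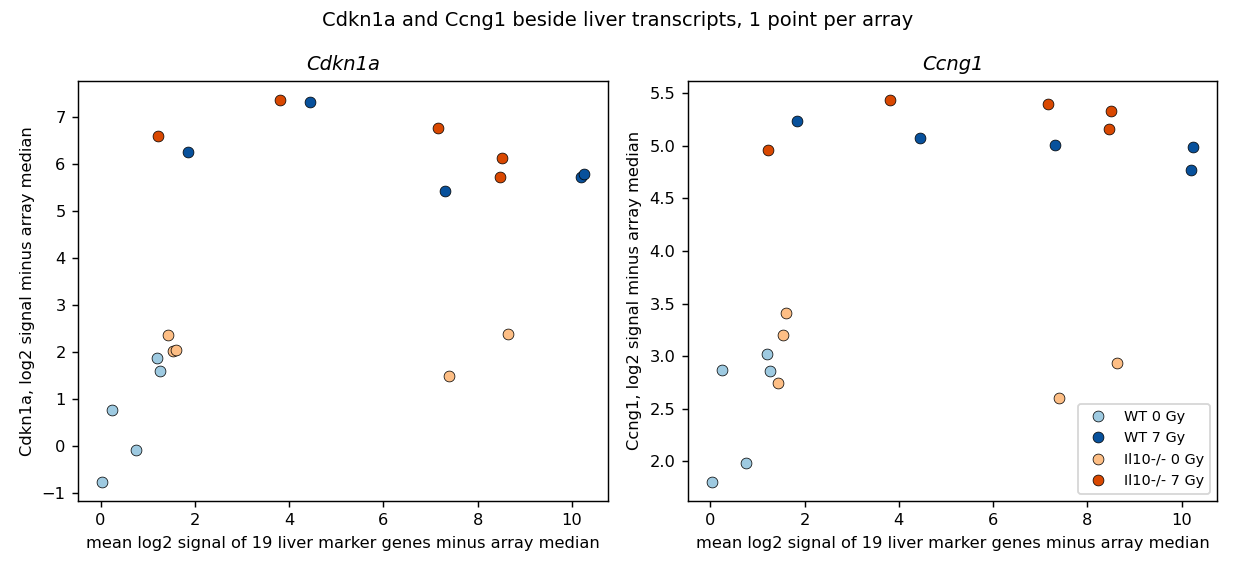
The log2 signal of Cdkn1a (left) and Ccng1 (right) on the vertical axis against the mean log2 signal of 19 liver marker genes on the horizontal axis, with 1 point per array and both relative to the array median. The 10 irradiated arrays lie above the 10 unirradiated arrays in each panel, and their liver signal runs from 1.23 to 10.2.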

How the data were processed

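The deposited scanner files hold the processed signal intensity of each spot, background-subtracted and not normalized between arrays. The authors made them with Agilent Feature Extraction, given as 10.7 in the submitters' notes and as another version in the scanner headers. A deposited table of 16909 rows holds the authors' log2 values; it matched the scanner values of each array with a correlation of at least 0.996 and was used as an alternative, its column medians running from 5.21 to 6.76. Spots flagged as non-uniform outliers were left out, spots of a probe averaged, log2 taken and the array median subtracted. Probes marked on 25% or more of arrays, and those under a 1.5-fold departure from the median on 20% of arrays, were removed, which left 18581 of 39429 probes and 15743 genes, each gene by its brightest probe. limma 3.58.1 in R 4.3.3 was fitted per comparison with Benjamini-Hochberg adjustment, and a call needs p below 0.001 and an FDR under 10%. Sesn1 and Sesn2 had exact permutation tests. All members are named, with at most the 3 called genes of largest rise and of largest fall per list and genotype, Trp53, Mdm4, family relatives of the members and the 5 features most like Cdkn1a. The number of arrays limits the precision. The members and lists were chosen with earlier results of these data known. Positions of probes are mm9, as in the array files, and promoters are RefSeq on GRCm38.p6. The tests were checked on simulated data. Alternatives covered scaling, background, filters, the slide, tissue covariates and each array left out.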

Additional observations from a re-analysis of the deposited data

Results flagged for a closer look

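Of 44 sets of 5 arrays checked, 1 for each of the 11 probes in each group, 2 held an array whose gap to its nearest neighbour was more than 0.71 of the whole range, and chance gives such a gap in about 1 set in 20. Both lie in the unirradiated WT group and both are replicate 5, the array with the fewest spots well above background, 29.9%. Sesn2 read 2.32 there and 3.76 to 3.97 on the other arrays of the group. Mdm2 read 3.60 there and 5.28 to 5.61 on the others. Without this array the WT difference of Mdm2 was 0.81 and that of Sesn2 0.18.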

How the results depend on the processing

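The number of members called after irradiation, 3 in each genotype, was 2 to 4 in WT mice and 3 to 5 in mice labelled Il10-/- under all alternatives but 1 in each, the 2 being normexp, which left no value for Plk2. In WT mice it was 0 with the liver and heart signals as covariates, where 5 features were called at all against 1263. In mice labelled Il10-/- it was 0 with the normexp background correction, and 5 with quantile normalization and 5 with an FDR under 5% as the only threshold, Mdm2 and Gadd45a being added. The cause was not tested. Over all these settings 5 to 2711 features were called in WT mice against 1263, and 0 to 4050 in mice labelled Il10-/- against 1700. Leaving out each array in turn gave 3 to 3 in WT mice and 3 to 4 in mice labelled Il10-/-, with Gadd45a added without replicate 4 of either Il10-/- group. The 3 comparisons between genotypes gave 0 members under every alternative run. Of 130 called values of members under an alternative 125 were still called and 0 changed sign, and of 921 uncalled values 66 changed sign and 14 became called. With the replicate number, which is the slide, as a block, 4 members were called in WT mice and 3 in mice labelled Il10-/-. Deviations of same-numbered arrays correlated from -0.66 to 0.68, with no pair of groups above 0.1 on all 5 slides. The 2 irradiated groups were above 0.1 on 4 slides, at a mean of 0.41. Unirradiated and irradiated WT arrays were too, at a mean of 0.22, and the other pairs of groups on 2 slides each. The numbers were taken to share a slide only, which these values do not establish, and the main fits leave the slide out. A single fit of all 20 arrays is the fit already used for the difference between responses. Genes dim against background, such as Plk2 and Ppm1d, are measured with less certainty than the rest.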
